A study of Homo sapiens with 6 samples.

Results

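The m6A peaks of U-251 MG cells carrying a hairpin against TRA2A (shTRA2A) were set directly against those of cells carrying a hairpin against METTL3 (shMETTL3), without starting from the control. U-251 MG is an established human glioblastoma line. Peaks were taken whole from the authors' list for each hairpin, 2736 for shTRA2A and 5433 for shMETTL3, which is 8169 of the 17375 peaks of the series. The other 9206 belong to cells with a control hairpin (shNC), used here only as a reference. Each condition had an immunoprecipitated library and an input library from total RNA, so 1 library pair per condition and 6 libraries in all. All groups share the cell line and the culture protocol, and all positions are on GRCh38. The sources used here give neither the hairpins' sequences, the time after delivery and the read depth, nor whether the cells were a pool or a clone. With 1 pair per condition no difference between the knockdowns has a replicate check, so the values are descriptions without a test. Intervals in brackets are exact Clopper-Pearson 95% intervals. They cover counting error only.

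N6-methyladenosine (m6A) is a common internal mark of mRNA, placed in the nucleus while the transcript is made. METTL3 is the catalytic subunit of the writer complex, in which METTL14 holds the RNA and WTAP, VIRMA, ZC3H13, CBLL1 and the RBM15 proteins place the complex on its substrates. The mark lies mainly in long internal exons and near stop codons, within a short motif around GGAC, and is read by YTH-domain proteins. TRA2A is an SR-like RNA-binding protein that recognises purine-rich exonic elements and regulates splicing. The series' title ties TRA2A to m6A on IFIT transcripts, so the direct comparison asks how far the peaks seen under a hairpin against TRA2A lie where peaks are seen under a hairpin against the catalytic writer subunit.

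The lists shared a minority of their peaks and a larger share of their genes. Of the shTRA2A peaks, 650 of 2736, 23.8% (22.2 to 25.4%), had at least 1 base in common with an shMETTL3 peak on the same strand. Of the shMETTL3 peaks, 640 of 5433, 11.8% (10.9 to 12.7%), lay on an shTRA2A peak. The shMETTL3 list is the longer, so it was also cut to its 2736 best peaks by score. On that list lay 390 shTRA2A peaks, 14.3% (13.0 to 15.6%), and 377 of the cut list's peaks lay on an shTRA2A peak, 13.8% (12.5 to 15.1%). The last peak inside had a score of 8.38, as had the first outside. Of the 3 peaks at that score, 1 lay inside. The score is the authors' value for each peak, on a scale that is not stated, and it ranks peaks within a list only.

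Of 1831 genes with an shTRA2A peak, 1022 had an shMETTL3 peak too, 55.8% (53.5 to 58.1%). These genes are 31.5% (29.9 to 33.2%) of the 3240 genes with an shMETTL3 peak. Over the 4049 genes with a peak in either list, 25.2% had peaks in both, 20.0% (809 genes) in shTRA2A alone and 54.8% (2218 genes) in shMETTL3 alone. Of the 20050 coding genes in the RefSeq table, 1006 had peaks in both, 768 in shTRA2A alone and 2127 in shMETTL3 alone. Most coding genes thus had no peak in either list, a background for the gene lists below. Having a peak in the same gene did not mean having it at the same place. Of the 1022 genes, 487 had an overlapping pair of peaks, 47.7% (44.6 to 50.8%). With the cut shMETTL3 list, 706 genes were in both, 38.6% of the shTRA2A genes and 37.2% of the cut list's 1898 genes. A peak list carries no transcript levels, so fewer methylated copies and less of the transcript cannot be told apart wherever a peak is present in 1 list only.

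The shared place that ranked highest in both lists, among genes with a name, was in EIF5B, a translation initiation factor that joins the ribosomal subunits. Its shTRA2A peak at chr2:99360470-99361742 (plus strand, GRCh38) was 1273 nt wide with a score of 52.3, the 2nd best of its list. It held 2 shMETTL3 peaks, of 648 nt with a score of 46.5 (rank 19) and of 450 nt with a score of 23.0 (rank 182). A 63 nt peak with the same bounds in both lists ranked alike (7 and 18) and lay in a locus known only by a number. SREK1, a splicing regulator with an SR domain, held the best shTRA2A peak of all, 789 nt at chr5:66170141-66170929 with a score of 54.5. Inside it lay a 50 nt shMETTL3 peak with a score of 25.2 (rank 128). SREK1 had 4 peaks in each list, and 3 of the shTRA2A peaks and 4 of the shMETTL3 peaks met a peak of the other list.

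Among the 12 genes whose overlapping peaks stood highest in both lists were other proteins of mRNA splicing and transcription. PRPF38B, a component of the spliceosome, had a single peak in each list. These were 650 nt at chr1:108699424-108700073 in shTRA2A (score 44.5, rank 6) and 625 nt from the same first base in shMETTL3 (score 20.6, rank 252). NSRP1, a speckle protein that regulates splicing, shared chr17:30185070-30185519, with scores of 19.9 (rank 36) in shTRA2A and 26.4 (rank 113) in shMETTL3. A second NSRP1 peak of 1090 nt, the better of its shMETTL3 peaks with a score of 65.1 (rank 7), met no shTRA2A peak. IWS1, an elongation factor partner, shared a place of 150 nt at chr2:127504738-127504887 (minus strand; ranks 55 and 136), and TAF7, a subunit of the general transcription factor TFIID, a place of 50 nt (ranks 181 and 205). EID1, an inhibitor of p300-type acetylation, had 1 peak in each list. The shTRA2A peak covered chr15:48878834-48878983 (score 15.3, rank 79), the shMETTL3 peak chr15:48878759-48878883 (score 36.9, rank 42), and they shared 50 nt.

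The other 5 of the 12 were FAM98A, SLC5A3, HUWE1, ROBO1 and SPACA6. FAM98A, of the tRNA ligase complex, shared a 50 nt place with ranks of 85 and 26. SLC5A3, the myo-inositol transporter, had an shTRA2A peak of 350 nt (score 22.3, rank 23) that overlapped 2 shMETTL3 peaks, the better of them with a score of 23.2 (rank 178). In HUWE1, a ubiquitin ligase, a 75 nt shTRA2A peak and a 1464 nt shMETTL3 peak shared only 25 nt at their edges. In ROBO1, the axon guidance receptor, both peaks were wide, 3235 and 2750 nt. Such widths, and overlaps, run from the first to the last base, and may include gaps where a peak has more than 1 block. Wide peaks like these recur, so places made of regular peaks were also listed, a step added after the values were seen. A regular peak is 1 block, a multiple of 25 nt and at most 1000 nt wide. That added HEXIM1, the inhibitor of the elongation kinase P-TEFb, TNKS1BP1, ZMYM4, PPIG, a cyclophilin of nuclear speckles, and ZC3H13. In all, 111 overlapping pairs were in the better-scored 25% of both lists.

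SPACA6 differs from the rest of the 12 because its shared span holds 3 microRNA genes. Their reference sequences show RNA that lies within the outer bounds of the peak. Whether they lie in an enriched block or in a gap between blocks was not tested. Methylation of primary microRNA transcripts by METTL3 is known to mark them for the nuclear processing machinery. Both lists gave the same span, chr19:51689503-51693434 (plus strand, 3932 nt), with a score of 18.7 (rank 44) in shTRA2A and 23.7 (rank 161) in shMETTL3. The control list gave it too, with a score of 38.0. Inside it lie MIR99B, MIRLET7E and MIR125A, which are made from a common primary transcript. The mature 5p sequences follow, from RefSeq (GRCh38.p14), with the seed, bases 2 to 8, in capitals. The 3 seeds differ.
hsa-miR-99b-5p: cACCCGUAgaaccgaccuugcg
hsa-let-7e-5p: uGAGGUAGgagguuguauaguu
hsa-miR-125a-5p: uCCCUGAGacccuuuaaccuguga
In order along the chromosome they lie at chr19:51692618-51692639, chr19:51692793-51692814 and chr19:51693268-51693291. GGAC, the core of the m6A motif, was searched on the hairpins' own strand. It occurs in 27.3% of the 1562 hairpins in the RefSeq table (427 hairpins). It is absent from the MIR99B hairpin and occurs once in each of the other two, in capitals here, between the 5p and the 3p sequence.
MIRLET7E hairpin: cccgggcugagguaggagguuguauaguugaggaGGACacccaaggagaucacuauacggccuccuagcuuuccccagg
MIR125A hairpin: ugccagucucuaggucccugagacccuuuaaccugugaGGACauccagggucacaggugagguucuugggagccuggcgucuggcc
A match is a description of these letters, since a span of 3932 nt gives no position for a modified base. A span of 4307 nt on the opposite strand, chr19:51688413-51692719, was also given in all 3 lists. It ends between the MIR99B and MIRLET7E hairpins.

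Over all hairpins, 7 lay whole within the outer bounds of an shTRA2A peak, 9 within those of an shMETTL3 peak and 4 within those of both. The fourth shared hairpin was MIR1184-1, in a 9934 nt span within the factor VIII gene F8 (chrX:154886236-154896169, minus strand). MIR455, MIR6509 and MIR6883 lay in shTRA2A peaks only. MIR26A1, a microRNA hosted by CTDSPL, MIR196A2 of the HOXC locus, MIR922, MIR6862-2 and MIR6889 lay in shMETTL3 peaks only. Among these 8, the only peak under 1000 nt was that of MIR922 at 225 nt.

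The best-scored shTRA2A peaks were the ones most often met in the other list, and the shMETTL3 list showed a shallower slope. In the best decile of the shTRA2A list by score, 55.5% (49.4 to 61.5%) of 274 peaks lay on an shMETTL3 peak. In the decile above the lowest, 6.57% (3.94 to 10.2%) did. The lowest decile, with scores from 3.39 to 7.33, broke the order at 21.5% (16.8 to 26.9%). The shMETTL3 list ran from 7.35% (5.30 to 9.88%) in its lowest decile to 16.0% (13.0 to 19.3%) in its best. Score and width were linked in shTRA2A, where the median width rose from 50 nt in the lowest decile to 317 nt in the best. In shMETTL3 the median width of a decile stayed between 100 and 125 nt. What width contributes to the slopes was not tested.

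**Figure D1:**
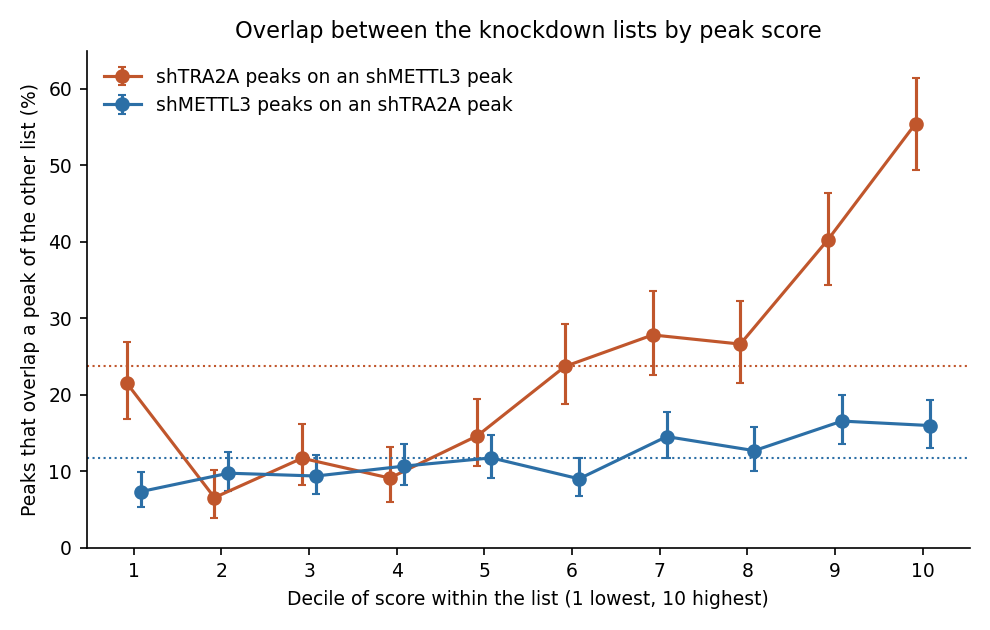
The share of peaks that overlap a peak of the other knockdown list (vertical axis, percent) by decile of each list's own score (horizontal axis). Points are shares, bars exact 95% intervals, and dotted lines the shares over the whole lists. The shTRA2A share reaches 55.5% in its best decile and the shMETTL3 share 16.0%.

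Width separated the peaks more than score did in the shMETTL3 list. Regular shTRA2A peaks of 225 to 1000 nt were found in 69.2% of cases (74 of 107; 59.5 to 77.7%) and those of 50 nt or less in 17.2% (14.6 to 20.1%). Regular shMETTL3 peaks of 225 to 1000 nt were found in 35.5% (106 of 299; 30.0 to 41.2%) and those of 50 nt or less in 6.85% (5.62 to 8.26%). A wider regular peak has more bases with which to meet another. Its median score was also higher, 12.5 against 7.71 in shTRA2A and 8.65 against 8.28 in shMETTL3 for the same width classes. What either contributes was not tested. Peaks over 1000 nt did not continue the rise in overlap with width, at 16.2% (13.5 to 19.1%) of 687 in shTRA2A and 9.33% (7.77 to 11.1%) of 1232 in shMETTL3. Their widths are outer spans that may hold gaps between blocks. Regular peaks covered 171675 nt in shTRA2A and 382050 nt in shMETTL3, of which 43650 nt were common, 25.4% and 11.4%.

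The overlaps made 675 pairs of peaks, of which 565 joined a single peak of each list. In 466 pairs both peaks were regular. Their midpoints lay a median of 37.5 nt apart, and 315 pairs, 67.6%, were within 50 nt. The same first and last base were given in 45 of these 466 pairs, 9.66%, and in 47 of the other 209, 22.5%. Those 47 identical pairs had a median width of 2984 nt (63 to 9991 nt), while the 45 are at most 1000 nt wide by the definition of a regular peak. The scores of the 2 members of a pair hardly followed each other across pairs (Spearman correlation 0.06 over 675 pairs and 0.02 over the regular pairs, as a description). MEIS2, a homeobox transcription factor, is an example. At chr15:36891379-36891628 its shTRA2A peak of 150 nt had a score of 7.59 (rank 2072) and its shMETTL3 peak of 175 nt a score of 60.9 (rank 11), and they shared 75 nt.

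**Figure D2:**
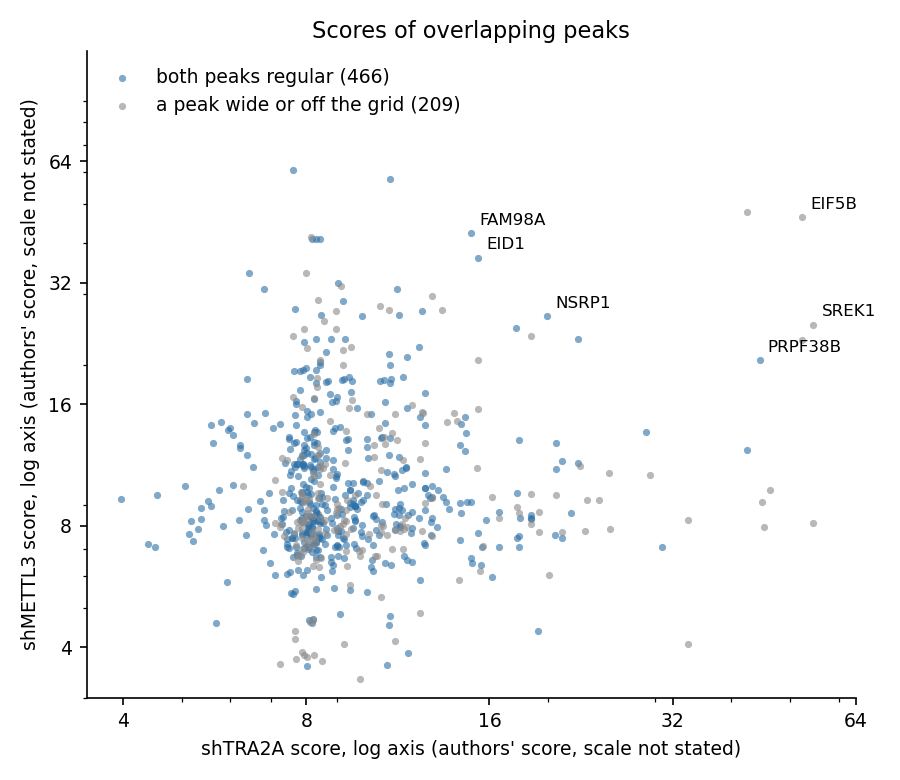
Scores of the 675 overlapping pairs, shTRA2A on the horizontal and shMETTL3 on the vertical log axis, in blue where both peaks are regular and in grey otherwise. Scores of different lists are not on a known common scale, so only the order along each axis can be read. EIF5B, SREK1, PRPF38B, NSRP1, EID1 and FAM98A stand high on both, as does an unlabelled point, the 63 nt peak in an unnamed locus.

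Peaks that missed an overlap were in part near a peak of the other list. Of 1331 regular shTRA2A peaks without an overlap, 118 were within 100 nt of an shMETTL3 peak on the same strand, 8.87% (7.39 to 10.5%), and 323 within 1000 nt, 24.3% (22.0 to 26.7%). Of 3296 regular shMETTL3 peaks without one, 161 were within 100 nt, 4.88% (4.17 to 5.68%), and 457 within 1000 nt, 13.9% (12.7 to 15.1%). By gene, 1029 of 2086 shTRA2A peaks without an overlap, 49.3%, lay in a gene with an shMETTL3 peak elsewhere, and 1487 of 4793 shMETTL3 peaks, 31.0%, the other way.

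VEGFA, the vascular growth factor that glioblastoma cells secrete, gives the best-scored case of the same gene at another place. Its shTRA2A peak of 50 nt at chr6:43784857-43784906 had a score of 16.8 (rank 58). Its shMETTL3 peak of 75 nt at chr6:43785007-43785081 had a score of 31.1 (rank 62), and 100 nt lay between them. The control peak lay at neither place. SEMA3A, a secreted semaphorin that repels growing axons, had 3 shTRA2A and 2 shMETTL3 peaks with no base in common. The 3 shTRA2A peaks lay at chr7:83961352-83961801 on the minus strand, and the better shMETTL3 peak at chr7:83961152-83961201. All 4 lay on control peaks. In MIR9-2HG, the host transcript of a neural microRNA, the shTRA2A peak of 275 nt (rank 55) and the shMETTL3 peak of 50 nt (rank 196) fell on different control peaks. TRIM41, a ubiquitin ligase, had 1 peak in each knockdown list (ranks 191 and 107) and none in the control list. The others of this kind with the best scores were ZNF841 and ZFHX4, where the shTRA2A peak was over 1000 nt wide.

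**Figure D3:**
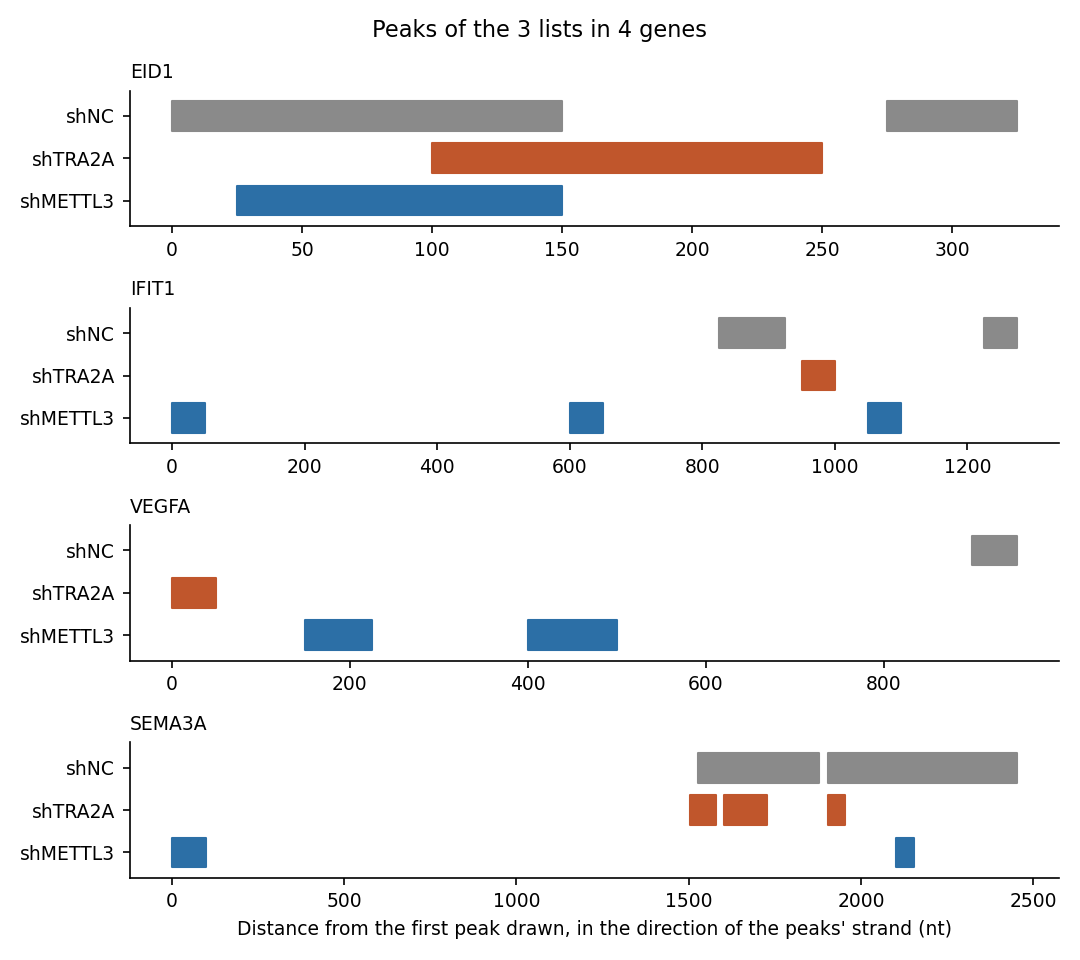
Peaks of the control (grey), shTRA2A (orange) and shMETTL3 (blue) lists in EID1, IFIT1, VEGFA and SEMA3A, drawn to scale within each panel by distance in nt from the first peak drawn. In EID1 the knockdown peaks overlap, and in the other 3 genes they do not. A control peak of SEMA3A far from the rest is not drawn.

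COPG2, a subunit of the COPI vesicle coat, held the best shTRA2A peak in a gene without an shMETTL3 peak. It was 50 nt wide at chr7:130546807-130546856 (minus strand), with a score of 29.4 (rank 13), and the control list had no peak in the gene. EIF3J, a subunit of initiation factor eIF3, had a 600 nt peak at chr15:44550841-44551440 (rank 40). The control list gave exactly the same bounds, and shMETTL3 gave no peak there. ZBTB47, a zinc finger protein, had a 325 nt peak (score 18.7, rank 47) that met a control peak. EPB41L2, a membrane skeleton protein, had a peak of 951 nt that met a control peak (rank 33), as did the wide peaks of PATL1, an mRNA decapping factor, ECE1, the endothelin-converting enzyme, and RGMB, a BMP co-receptor. CLPTM1L and RTEL1, a telomere helicase, had wide peaks that met none. The 75 nt peak assigned to GTSF1 (rank 94) lay on the opposite strand of that gene. Of the 10 genes chosen this way, 8 had a control peak somewhere in the gene, against 363 of all 809 genes with a peak in shTRA2A alone, 44.9% (41.4 to 48.4%).

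The shMETTL3 list had its best peaks without an shTRA2A counterpart near the top of the list. CEP162, a centriolar protein of cilium assembly, had a peak of 5265 nt with a score of 76.2 (rank 5), ALG10, a glucosyltransferase of N-glycan assembly, a peak of 1878 nt with a score of 74.4 (rank 6), and FRYL a peak of 334 nt with a score of 65.1 (rank 7). None of these 3 lay on a control peak. KCNQ1 is a potassium channel gene, and the 50 nt peak assigned to it at chr11:2682378-2682427 (score 64.9, rank 9) lay on the minus strand. The antisense long non-coding RNA KCNQ1OT1 also spans this place, and coding genes were given precedence. NCOA3, a nuclear receptor coactivator, had a peak of 227 nt on a control peak (rank 10). SP1, a zinc finger transcription factor, had one of 496 nt (rank 12) off its 3 control peaks. TXNDC5, a protein disulfide isomerase of the endoplasmic reticulum, had a 50 nt peak at chr6:7882842-7882891 with a score of 57.3 (rank 15) in a gene without a control peak. COL4A5, a basement membrane collagen, and TTLL5 and CLASP1, which act on microtubules, had peaks of 4435, 4900 and 584 nt (ranks 13, 16 and 17).

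Among regular shMETTL3 peaks in genes outside the shTRA2A list, a selection added after the values were seen, was NEAT1, the scaffold RNA of paraspeckles. It had 3 peaks of 50 nt at chr11:65424774-65426123, the best with a score of 32.8 (rank 55), and no peak in either other list. ZMAT2, a spliceosome protein, had a 75 nt peak (score 35.8, rank 45) and TSR2, a ribosomal protein chaperone, 2 peaks (best score 37.3, rank 39). Neither gene had a control peak. SHOC2, a scaffold of RAS signalling, had 3 peaks that all lay in a single control peak of 775 nt. KAT6A, a histone acetyltransferase, had 5 shMETTL3 peaks and 10 control peaks and no shTRA2A peak. SEL1L, of endoplasmic reticulum quality control, had 4 shMETTL3 and 5 control peaks.

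Within the 1022 genes in both lists, 401 had more shMETTL3 peaks, 169 more shTRA2A peaks and 452 the same number. The shMETTL3 list holds more peaks in all. A single peak per gene was the rule in both, for 73.7% (71.6 to 75.7%) of shTRA2A genes and 64.8% (63.1 to 66.4%) of shMETTL3 genes. CALD1, the actin and myosin binding protein caldesmon, went furthest against the list lengths, with 7 shTRA2A and 2 shMETTL3 peaks. Of its shTRA2A peaks, 6 lay at chr7:134933014-134934063, where both of its shMETTL3 peaks also lay. The best of them, 300 nt with a score of 20.6 (rank 29), covered an shMETTL3 peak of 100 nt with a score of 12.8 (rank 912). ARHGAP5, a GTPase-activating protein, had 5 shTRA2A peaks and 1 shMETTL3 peak, none overlapping. SEC63, a translocation factor of the endoplasmic reticulum, also had 5 and 1, but its shMETTL3 peak was a span of 4986 nt and its shTRA2A peaks lay on both strands. ZFPM2, a GATA cofactor, and MCC, a candidate colorectal tumour suppressor, had 4 shTRA2A peaks each and no shMETTL3 peak. Peaks were assigned to genes without regard to strand, and those of ZFPM2 lay on both strands.

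Genes of mitosis were among those with the largest excess of shMETTL3 peaks. CENPF, a kinetochore protein, had 2 shTRA2A and 12 shMETTL3 peaks with no overlap. The 2 shTRA2A peaks were 50 nt wide with scores of 7.54 and 7.91, and the shMETTL3 peaks had scores from 5.88 to 14.8 in their own list. ASPM, a spindle pole protein whose loss causes microcephaly, had 8 shMETTL3 peaks of 50 to 100 nt with scores from 8.43 to 16.2 and no shTRA2A peak. ARSJ, a sulfatase, and MTCL1, a microtubule crosslinker, had 2 shTRA2A and 9 shMETTL3 peaks each. Both shTRA2A peaks of ARSJ met shMETTL3 peaks and neither of MTCL1's did. SAMD9, an antiviral protein induced by interferon, had 6 shMETTL3 peaks and no shTRA2A peak. The genes with the most peaks over both lists were ZC3H13 with 8 shTRA2A and 13 shMETTL3 peaks, FAT1, a giant cadherin, with 8 and 9, PRRC2C with 6 and 10, and MEIS2 and MACF1, a linker of actin and microtubules, with 8 and 7 each. The MEIS2 peaks lay on both strands in each list.

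**Figure D4:**
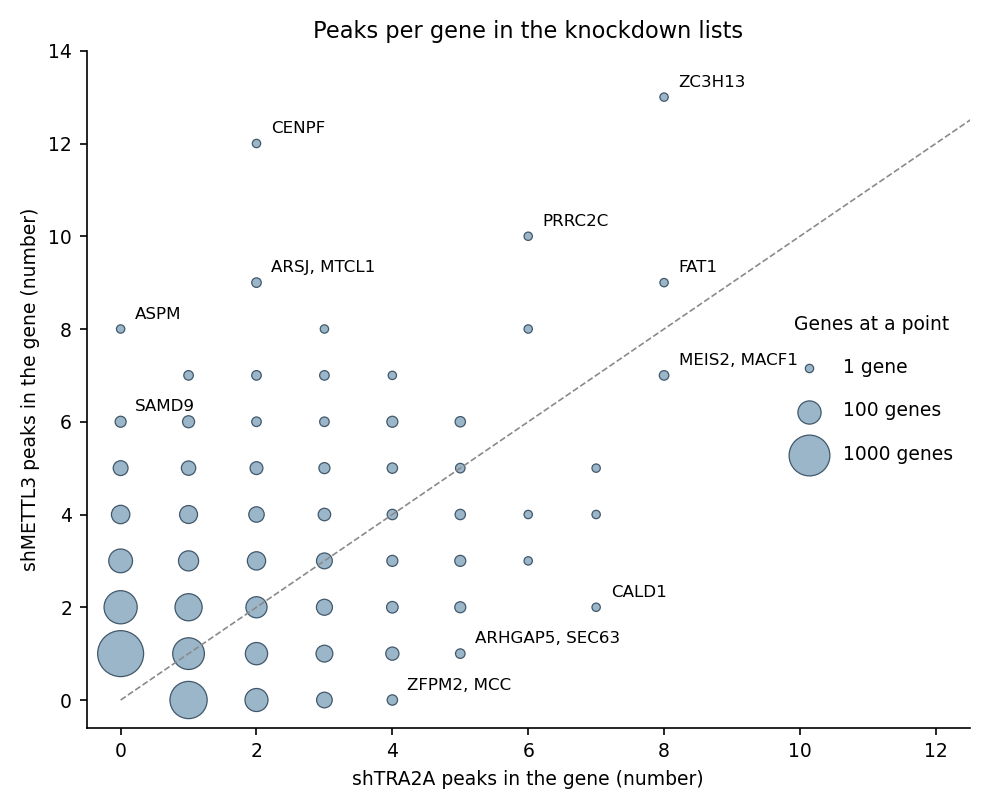
Genes by their number of shTRA2A peaks (horizontal axis) and shMETTL3 peaks (vertical axis). The area of a circle grows with the number of genes at that point, and the dashed line marks equal numbers. ZC3H13 with 8 and 13 peaks lies furthest out, CENPF with 2 and 12 lies far above the line and CALD1 with 7 and 2 far below it.

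The genes that each hairpin targets are shown here by their peaks only, which do not measure knockdown. METTL3 (chr14:21498138-21511340) had no peak in any list. TRA2A (chr7:23504780-23531981) had a 50 nt shTRA2A peak with a score of 7.57 (rank 2126) and no peak in the other lists. Of 12 listed m6A writer genes, a list wider than the complex described above, 6 had a peak in either knockdown list. Of these, 4 were in both and 2 in shMETTL3 alone, where 25.2% of all genes with a peak in either list are in both. The interval of the writers' share in both, 22.3 to 95.7%, spans that value. ZC3H13, which anchors the writer in the nucleus, shared an identical 50 nt peak at chr13:45967937-45967986 (minus strand), with scores of 11.3 in shTRA2A and 30.8 in shMETTL3 (rank 67). VIRMA, the scaffold of the complex, had 1 shTRA2A and 5 shMETTL3 peaks, and RBM15B, which recruits it to RNA, had 3 and 3. Both had overlapping peaks. CBLL1, a subunit also known as HAKAI, had 1 and 2 without an overlap. METTL14, the partner of METTL3, and RBM15 had 1 shMETTL3 peak each and no shTRA2A peak.

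Of the m6A demethylases and readers, 10 of 18 had a peak in either list, 5 of them in both. The interval of that share, 18.7 to 81.3%, spans the 25.2% of all genes. The list had 18 peaks in each knockdown. Over all peaks assigned to genes, those of shTRA2A were 33.4% (32.4 to 34.5%), which lies inside the list's interval of 32.9 to 67.1%. YTHDC1, the nuclear reader, had 3 shTRA2A peaks and 1 shMETTL3 peak, which did not overlap. YTHDF2, a reader that speeds mRNA decay, had 1 in each, which did. YTHDF1 and YTHDF3 had 1 shMETTL3 peak each and no shTRA2A peak. RBMX, a nuclear RNA-binding protein, was the only member with a peak in shTRA2A alone.

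Splicing genes had the largest share in both lists among gene lists with over 20 members present. Of 34 SR proteins and splicing factors with a peak in either list, 20 had peaks in both. That is 58.8% (40.7 to 75.4%) against 25.2% of all genes. Another 7 were in shTRA2A alone, 20.6% (8.70 to 37.9%), an interval that spans the 20.0% of all genes. The other 7 were in shMETTL3 alone, also 20.6%, against 54.8% of all genes. The 34 genes held 55 shTRA2A and 56 shMETTL3 peaks, so shTRA2A made up 49.5% (39.9 to 59.2%) of the list's peaks against 33.4% of all assigned peaks. With the cut shMETTL3 list the counts were 55 and 40, 57.9% (47.3 to 68.0%), an interval that spans the 49.9% of all assigned peaks there. In 16 of the 20, peaks overlapped. The share among regular peaks alone was 34 of 70, 48.6%, against 32.5% of all assigned regular peaks. SRSF11 had 3 peaks in each list, of which a 100 nt peak at chr1:70250326-70250425 was identical, with scores of 11.0 (rank 277) and 20.0 (rank 267). TAF15, an RNA-binding protein of transcription and splicing, had 2 shTRA2A peaks (best rank 20) that both met shMETTL3 peaks. SRPK2, a kinase of SR proteins, had 4 shTRA2A peaks and 1 shMETTL3 peak. EWSR1, the splicing coactivators SRRM1 and THRAP3, HNRNPU, SRSF8 and TRA2A itself were among those with peaks in shTRA2A alone. The muscleblind proteins MBNL1 and MBNL2, QKI, HNRNPK, CLK1, RBM10 and LUC7L had peaks in shMETTL3 alone. In the control list these genes held 93 peaks.

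Of 30 interferon-stimulated genes with a peak in either list, 10 had peaks in both, 1 in shTRA2A alone and 19 in shMETTL3 alone. The 63.3% (43.9 to 80.1%) in shMETTL3 alone has an interval that spans the 54.8% of all genes. They held 15 shTRA2A and 65 shMETTL3 peaks, so shTRA2A made up 18.8% (10.9 to 29.0%) of them against 33.4% of all assigned peaks. The control list held 107. Regular peaks alone gave 12 and 56. With the cut shMETTL3 list the counts were 15 and 33, 31.2% (18.7 to 46.3%), against 49.9% of all assigned peaks. SAMD9 with 6 shMETTL3 peaks, TRIM56, which acts in STING signalling, with 6, NLRC5, a regulator of MHC class I, with 4, and FAM111A with 4 had no shTRA2A peak. SAMD9L had 1 shTRA2A and 6 shMETTL3 peaks and PARP14, a mono-ADP-ribosyltransferase, 2 and 6, both with an overlap. ZC3HAV1, the zinc finger antiviral protein, was the 1 member with peaks in shTRA2A alone, 2 of them.

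The IFIT genes, which encode antiviral proteins with tetratricopeptide repeats, carried 1 shTRA2A peak and 8 shMETTL3 peaks, and none overlapped. With 9 peaks in all, the interval of the shTRA2A share runs from 0.28 to 48.2% and spans the 33.4% of all assigned peaks. IFIT1 had 1 shTRA2A peak of 50 nt at chr10:89403424-89403473 with a score of 7.72 (rank 1886). Its 3 shMETTL3 peaks of 50 nt had scores of 6.62, 7.87 and 7.91 (ranks 4648, 3340 and 3276), and the nearest lay at chr10:89403524-89403573. No knockdown peak of IFIT1 met another or a control peak. IFIT2, IFIT3 and IFIT5 had 2, 1 and 2 shMETTL3 peaks and no shTRA2A peak. The best of these, 75 nt in IFIT5 at chr10:89417344-89417418, had a score of 14.9 (rank 611) and lay inside a control peak of 1175 nt. EGFR, whose recycling the series' title names, had 1 peak of 75 nt in each list, at chr7:55206264-55206338 in shTRA2A (score 7.59, rank 2069) and chr7:55206314-55206388 in shMETTL3 (score 5.41, rank 5060). They shared 25 nt and both lay on a control peak.

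Of 23 genes of receptor kinase, RAS and PI3K signalling, 5 had peaks in both lists, 5 in shTRA2A alone and 13 in shMETTL3 alone. MET, the hepatocyte growth factor receptor, GAB1, CBLB and SPRY2 were among those in shTRA2A alone, with 1 peak each, while ERBB2 had 2, PIK3R1 3 and RPTOR 4 shMETTL3 peaks. IRS1, the insulin receptor substrate, had 5 and 3 with an overlap. Of 29 endocytosis and recycling genes, 7 were in both, 10 in shTRA2A alone, 34.5% (17.9 to 54.3%) against 20.0% of all genes, and 12 in shMETTL3 alone. The recycling factors EHD1, EHD4, MICALL1 and SNX27 and the ESCRT-0 proteins HGS and STAM2 had 1 shTRA2A peak each. RAB14, RAB35 and RAB11B, EPS15, PICALM and the sorting receptor IGF2R were among those in shMETTL3 alone. The intervals of both lists span the shares over all genes.

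Of 21 cell cycle genes, 4 were in both, 4 in shTRA2A alone and 13 in shMETTL3 alone, with 15 shTRA2A and 50 shMETTL3 peaks (23.1%; 13.5 to 35.2%), an interval that spans the 33.4% of all assigned peaks. CENPF and ASPM hold 20 of the 50, and without them the counts were 13 and 30 (30.2%; 17.2 to 46.1%). With the cut shMETTL3 list they were 15 and 36 with both genes kept (29.4%; 17.5 to 43.8%), against 49.9% of all assigned peaks. MKI67, the proliferation marker, had 5 and 6 with an overlap. The condensin genes SMC2 and SMC4 had 2 shTRA2A peaks each and NCAPG 2 shMETTL3 peaks. KIF23, a kinesin of cytokinesis, had 3 shMETTL3 peaks, and AURKA and AURKB, the mitotic kinases, 1 each. CCND1 had 1 shTRA2A peak. Of 28 genes of DNA replication and repair, 13 were in both, 46.4% (27.5 to 66.1%) against 25.2% of all genes. Another 13 were in shMETTL3 alone, among them BRCA1 with 3 peaks, BLM, ATR and PALB2. That share has the same interval, which spans the 54.8% of all genes. ATM and RFC1 had shTRA2A peaks alone.

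Of 92 chromatin regulators listed, 72 had a peak in either list. In both were 39, 54.2% (42.0 to 66.0%), against 25.2% of all genes. In shTRA2A alone were 8, 11.1% (4.92 to 20.7%), an interval that spans the 20.0% of all genes. In shMETTL3 alone were 25, 34.7% (23.9 to 46.9%), against 54.8% of all genes. The 72 genes held 66 shTRA2A and 169 shMETTL3 peaks, 28.1% (22.4 to 34.3%) from shTRA2A, an interval that spans the 33.4% of all assigned peaks. With the cut list they held 66 and 95, 41.0% (33.3 to 49.0%) against 49.9%. In 15 of the 39 the peaks overlapped, and 60 of the 72 had a control peak. The histone methyltransferases KMT2A, KMT2B, KMT2C and KMT2D, SETD2, NSD1 and ASH1L were all in both. PHF3, which binds the polymerase II tail, had 5 shTRA2A and 4 shMETTL3 peaks with an overlap. CHD4, ARID2, BCOR and SMARCC1 had shTRA2A peaks alone, and SETD5, KAT6A, CHD8, ARID1B and KDM4A shMETTL3 peaks alone. These genes are long, and length went with being in both over all genes, with a median gene body of 54440 nt for genes in both, 39928 nt for shTRA2A alone and 39468 nt for shMETTL3 alone. What length contributes to the list counts was not tested.

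**Figure D5:**
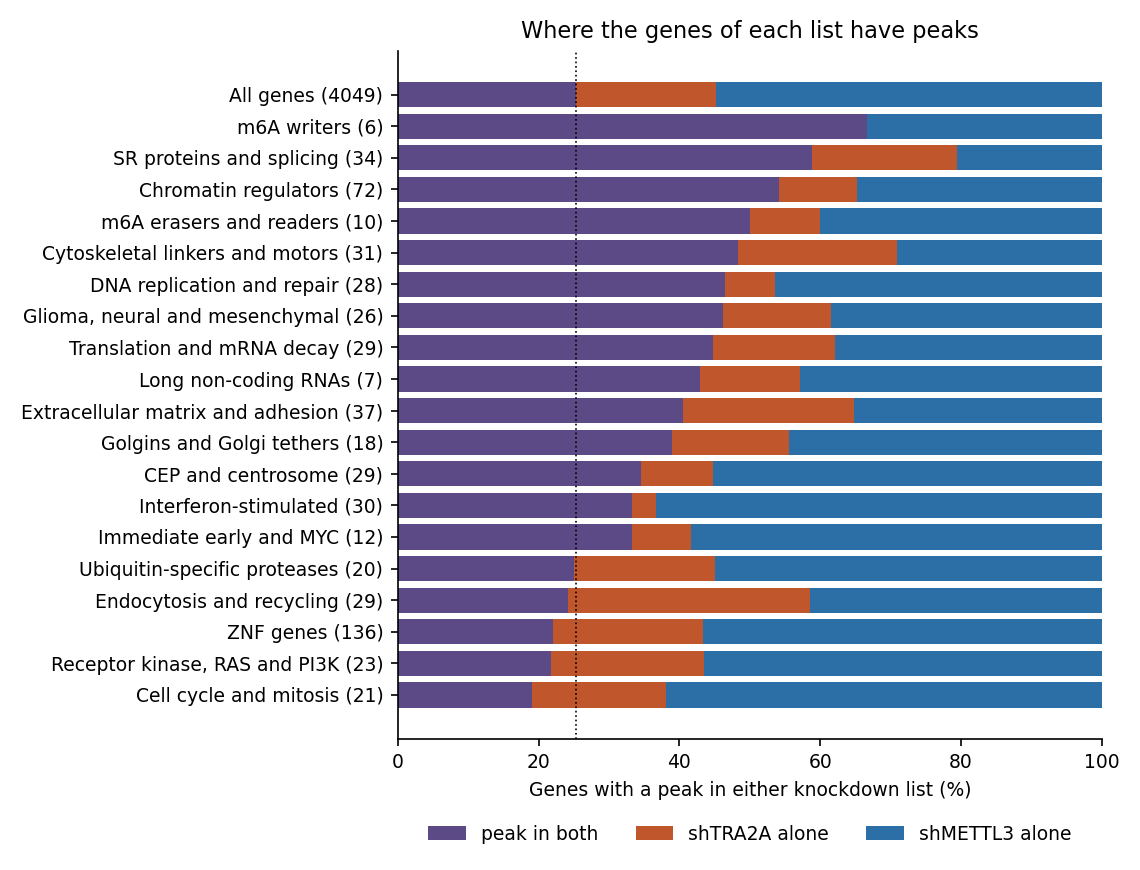
For each gene list, the percent of its genes with a peak in either knockdown list that had peaks in both (purple), in shTRA2A alone (orange) or in shMETTL3 alone (blue). Numbers in brackets are genes with a peak in either list, and the dotted line is the 25.2% in both over all 4049 genes. Splicing factors (58.8%) and chromatin regulators (54.2%) lie to the right of it, and interferon-stimulated genes have the smallest orange share, 1 of 30, among lists with over 20 genes.

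In the extracellular matrix, cytoskeleton and Golgi lists the shTRA2A share of peaks was above the 33.4% of all assigned peaks by a margin that depends on the peaks counted. The Golgi interval spans that value, and the lower bound of the cytoskeletal one equals it as printed. Among regular peaks the matrix (31.2 to 56.0%) and cytoskeletal (31.8 to 54.1%) intervals span the 32.5% of all assigned regular peaks. With the cut shMETTL3 list they (47.3 to 70.4% and 44.1 to 65.6%) span the 49.9% of all assigned peaks there. Matrix and adhesion genes had 45 shTRA2A and 54 shMETTL3 peaks, 45.5% (35.4 to 55.8%) from shTRA2A. VCAN, the proteoglycan versican, had 7 and 5 and ITGA5, the fibronectin receptor subunit, 3 and 2, both with overlaps. MMP14, a membrane metalloprotease, LAMA4, THBS1 and FBN1 had shTRA2A peaks alone. FN1, ITGB1, CDH2, COL4A1 and TNC, the glioma matrix protein tenascin C, had shMETTL3 peaks alone. Cytoskeletal linkers and motors had 49 and 66 peaks, 42.6% (33.4 to 52.2%). PLEC, the linker plectin, had 5 shTRA2A and 2 shMETTL3 peaks, SPTBN1, a spectrin, 3 and 0, and MYH10, a non-muscle myosin, 2 and 7. Golgins had 22 and 30 peaks (42.3%; 28.7 to 56.8%), with GOLGA4 at 5 and 5 and GOLGB1 at 1 and 3, both with overlaps.

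Peaks show where RNA was enriched, not how much of a transcript a cell holds, so the line's identity can be checked only by their presence. Of 7 defining markers, NES, SOX2, SOX9 and EGFR had peaks in both lists, TNC in shMETTL3 alone, and VIM and CD44 in neither. Of 26 neural and glioma genes with a peak, 12 were in both, 46.2% (26.6 to 66.6%), against 25.2% of all genes. Another 4 were in shTRA2A alone, 15.4% (4.36 to 34.9%), and 10 in shMETTL3 alone, 38.5% (20.2 to 59.4%). The intervals of these 2 shares span the 20.0% and 54.8% of all genes. SOX2, a stem cell factor of glioma, had a shared place at chr3:181713375-181713524, ranked 77 in shTRA2A and 4763 in shMETTL3. SOX9, a glial factor, had 1 peak in each list that shared 125 nt, ranked 1370 and 279. NES, the intermediate filament nestin, had 3 shTRA2A and 5 shMETTL3 peaks with overlaps. ZEB1 and SNAI2, factors of the mesenchymal state, had shTRA2A peaks alone, TWIST1 and CEBPB shMETTL3 peaks alone, and ZEB2 3 and 2 with an overlap. Of 24 listed markers of blood, endothelial, epithelial, neuronal and oligodendroglial cells, 1 had a peak in either list. Most coding genes had none either, so a low count is a weak check. Of 7 long non-coding RNAs, NORAD, TUG1 (5 and 6 peaks) and MIR100HG were in both, MEG3 in shTRA2A alone with 3, and NEAT1, SNHG14 and LINC-PINT in shMETTL3 alone. The interval of the share in both, 9.90 to 81.6%, spans the 25.2% of all genes.

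Ubiquitin-specific proteases had 5 of 20 genes in both, zinc finger genes 30 of 136, centrosome genes 10 of 29, and immediate early genes 4 of 12, each with an interval that spans the 25.2% of all genes. Genes of translation and mRNA decay had 13 of 29 in both, 44.8% (26.4 to 64.3%), whose interval lies above that value. In zinc finger genes, peaks were 88 and 166, 34.6% (28.8 to 40.8%) from shTRA2A. Of the centrosome genes, CEP250 had 1 and 5, AKAP9 3 and 1, CEP72 2 shTRA2A peaks and CEP350 5 shMETTL3 peaks. DICER1 and DROSHA, the microRNA processing enzymes, were in both lists, with 1 shTRA2A peak each and 3 and 2 shMETTL3 peaks.

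Along the gene body the lists did not differ beyond their intervals. Regular peaks in coding genes of known strand fell in the last 10% of the gene in 29.5% (27.0 to 32.0%) of cases in shTRA2A and 32.2% (30.5 to 34.0%) in shMETTL3. The first 10% held 8.07% (6.67 to 9.65%) and 7.32% (6.38 to 8.34%). Peaks with an overlap fell in the last 10% in 30.8% (26.1 to 35.7%) of shTRA2A cases, and those without one in 29.0% (26.1 to 31.9%). Over all peaks in genes of known strand, regular or not and with long non-coding genes included, nearly all lay on the gene's own strand. The shares were 94.6% (93.5 to 95.5%) of 2138 in shTRA2A and 95.0% (94.3 to 95.6%) of 4285 in shMETTL3.

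Peaks at the first bases of transcripts were few. The first 50 bases of an annotated start were touched at 56 starts in shTRA2A, 142 in shMETTL3 and 17 in both, of 26552 starts in the RefSeq table. Some genes have more than 1 start. The letters GGAC occur on the transcript's strand in 19.4% of all these windows, in 9 of the 56 (16.1%) and in 39 of the 142 (27.5%). Of the 17 in both, 1 has GGAC, that of CUL9, where each list gave the same 2202 nt span. Both peaks were regular at 2 of the starts, those of ZBED6, a transcription factor, with 250 nt in shTRA2A and 125 nt in shMETTL3, and TMUB1 with 150 and 50 nt. MEPCE, which caps the 7SK RNA, had 492 and 1126 nt. DLG4, a synaptic scaffold, and UTP4, of ribosome biogenesis, had identical wide spans.

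Set beside the control, the knockdown lists met it more often than each other at equal numbers of peaks. The control peaks used were the best of 9206, while the shTRA2A list was whole. The bases covered were not made equal, and wider regular peaks met the other knockdown list more often. On the 2736 best control peaks lay 24.2% (22.6 to 25.8%) of shTRA2A peaks and 27.6% (25.9 to 29.3%) of the cut shMETTL3 list, where 14.3% and 13.8% lay on each other. Peaks shared by the knockdowns were mostly control peaks as well, 66.9% (63.2 to 70.5%) of the 650 in shTRA2A and 68.1% (64.4 to 71.7%) of the 640 in shMETTL3. Of the peaks without an overlap, 23.5% (21.7 to 25.4%) and 27.9% (26.7 to 29.2%) lay on a control peak. Peaks met in neither other list made up 58.3% (56.4 to 60.2%) of shTRA2A and 63.6% (62.3 to 64.9%) of shMETTL3. By gene, 80.7% (78.2 to 83.1%) of those in both knockdown lists had a control peak, against 44.9% of those in shTRA2A alone and 50.3% (48.2 to 52.4%) of those in shMETTL3 alone. A second library of the same condition, which would show how often a peak is found again without any change, was not analysed here.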

How the data were processed

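The deposited BED lists hold 1 peak a line. Column 5 is the authors' score for each peak, on an unstated scale. It was used only to rank and filter peaks within a list. Per the labels' protocols, DNase-treated total RNA was fragmented and made into stranded libraries, amplified and sequenced in pairs. Reads were handled with HISAT2 2.2.1, featureCounts 2.0.1 and SAMtools on GRCh38, per the submitters' processing notes. The sources used here name no peak caller, threshold or depth, and do not say whether strand was handled alike in all lists. Of the lists, 1 had a name that matches no label and equals the shTRA2A list, and was not used.

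Overlaps were computed with Python 3.11.15, numpy 2.4.6 and pandas 2.3.3, and intervals with scipy 1.17.1. Overlaps and widths use the first and last base of a peak, so any gap between blocks counts as part of it. The overlaps were tested on simulated data (0 wrong answers) and against bedtools 2.31.1 (0 peaks differed). Intervals treat peaks or genes as independent. Amplified reads are not independent molecules, and neighbouring peaks may not be either.

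A peak was given the coding gene it touches in the RefSeq table (GRCh38.p14), or, of several, the innermost gene that contains the entire peak, and otherwise a long non-coding gene by the same rule. The table holds gene bodies without exons, so exon, intron and UTR were not assigned. Strand was known for 15843 of 20050 coding genes. Named genes are TRA2A, METTL3, EGFR and 4 IFIT genes whatever their values, the 12 best in both lists, the 10 best in each list alone, the 6 best in both without an overlap, 5 with the largest excess of peaks on each side, 5 with the most peaks, and up to 6 members of each of 20 gene lists. Other list members were named after their values were seen. The members, lists and rules were chosen with earlier results of these data known. Other overlap, score, width, strand, merging and assignment settings were tried. Some genes are not reported here.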

Additional observations from a re-analysis of the deposited data

How the results depend on the processing

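Each share was recomputed under other settings, and a value is called moved if it left the interval of the share as reported. Requiring midpoints within 100 nt gave 20.4% of shTRA2A and 10.3% of shMETTL3 peaks, and 12.3% and 11.8% for the cut list. The better-scored 50% of each list gave 21.1% and 10.3%, and 12.1% and 11.9% for the cut list. Both sides were reduced in this setting, also by gene below, so fewer partners were left to meet. The shares by decile of score used the whole other list and are not comparable. The other overlap settings (50% of the shorter peak, either strand, regular peaks, merging within 100 nt and the order of ties) stayed inside the intervals. By gene, the better-scored 50% gave 49.0% of shTRA2A and 25.2% of shMETTL3 genes, regular peaks 52.9% and 28.4%, the cut shMETTL3 list 38.6% and 37.2%, and requiring an overlapping pair 26.6% and 15.0%. Peaks touching 1 coding gene, and leaving out peaks against the known strand of their gene (a setting chosen after seeing the data), stayed inside. The shTRA2A share of a gene list's peaks was recomputed in 3 settings chosen after seeing the data, and stayed inside its interval in every one of the lists with 10 or more peaks. Cutting the shMETTL3 list, also chosen after seeing the data, raises that share by construction, over all assigned peaks from 33.4% to 49.9%, and the splicing, matrix and cytoskeletal intervals then span the value over all peaks. The cell cycle and chromatin intervals, which span the value over all peaks without the cut, lie below it with the cut. The interferon interval lies below it in both settings. Leaving out a replicate was not possible with 1 library pair per condition. No paired analysis was possible because each condition has 1 library pair and the result comes from no test. Depth is not known here, so whether a missing peak lies below detection was not tested.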
